A study of Saccharomyces cerevisiae with 14 samples.

Results

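The arrays of the PB1 strain of Saccharomyces cerevisiae were compared with those of the construct strains DT1, TF1 and HT4. The 2 arrays titled PB1 (strain yjdi361) were set against the 6 arrays titled DT1 (yjdi355), TF1 (yjdi357) or HT4 (yjdi359), which makes 8 of the 14 arrays of the series. All 4 strains were chosen by their titles alone, and no measured value entered the choice. By its title the series examines which yeast genes depend on the functional domains of TAF1, and the labels state that TAF1 mutants were induced with galactose before a heat shock. The labels do not say what the codes PB1, DT1, TF1 and HT4 stand for, so no domain is assigned to any of them here. The codes before the strain names in the titles are not explained either. Genotypes, alleles and promoters are likewise not given beyond the strain numbers. FHT-WT1 (yjdi353), whose label names the wild type, and the strain labelled null (yjdi381) are cited below for single values only.

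Every strain received the same treatment. The medium lacked leucine and held 3% raffinose, growth went to an OD600 near 0.7, galactose was then present at 2% for 30 min at 25 °C, and warm medium took the cultures to 37 °C for 45 min before harvest. Heat and galactose are therefore common to PB1, to DT1, TF1 and HT4, and to the reference strain yjdi363. On array 1 of a strain its polyA RNA carried Cy5 and the reference RNA Cy3, and on array 2 the dyes were exchanged. The spots were PCR products of yeast genes, so the products of near-identical genes can bind each other's transcripts. Each value below is a log2 ratio of strain to reference after every array was set to a median of 0 over named genes, and each difference is PB1 minus the mean of DT1, TF1 and HT4 ± SE from limma, with 2 arrays per strain. Whether both arrays of a strain used RNA from separate cultures is not stated, and the spread behind the p-values may therefore be technical only. In such bulk extracts fewer cells of a kind and less RNA per cell cannot be told apart.

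As background, TAF1 is the largest subunit of TFIID, the general factor that carries the TATA-binding protein to promoters and helps RNA polymerase II begin transcription. Yeast promoters also use the SAGA complex for the same step, and promoters of stress-induced genes are known to lean on SAGA more than those of housekeeping genes such as ribosomal protein genes. A shift to high temperature calls on the heat shock factor Hsf1, which drives chaperone genes, and on Msn2 and Msn4, which drive a wider stress response. Amino acid and purine synthesis genes are under the activators Gcn4, Bas1 and Pho2, and genes for other sugars are held down while glucose is present.

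The level of TAF1 was set side by side first, since the strains differ in TAF1. On PB1 arrays 1 and 2 the TAF1 log2 ratio was -0.65 and -0.43, against -0.31 and -0.78 in DT1, -0.15 and -0.82 in TF1, and -0.27 and -1.06 in HT4. The ranges overlapped, and the difference of 0.03 ± 0.17 did not pass the threshold (limma adjusted p = 0.947). With the strain in Cy5, however, PB1 lay below every other strain, and with it in Cy3 above every other strain. The small difference thus averages over opposite signs and does not show that the TAF1 level was alike. In the strain labelled null the ratio was -3.52 and -3.46, which is the basis for reading the ratios as strain over reference, a direction the labels do not give. Of the 15 measured TFIID subunit genes none was called in PB1 against the other strains, and their median difference was 0.01. MET17 and BUD6 were far above the reference in all 4 strains, and both were singled out after their values were seen. MET17, which encodes the enzyme that makes homocysteine from sulfide, had log2 ratios of 5.30 and 4.00 in PB1, 4.97 and 4.80 in DT1, 5.10 and 4.58 in TF1, and 5.26 and 4.44 in HT4. In FHT-WT1 MET17 had 0.07 and -0.39, and in the null strain it had 0.48 and -0.52 before centring. The MET17 difference between PB1 and DT1, TF1 and HT4 was -0.21 ± 0.18 (limma adjusted p = 0.548). BUD6, a polarity gene that binds actin, had 2.30 and 1.50 in PB1, 1.81 and 2.05 in DT1, 1.82 and 2.04 in TF1, and 2.08 and 1.43 in HT4. Before centring BUD6 had 0.25 and -0.08 in FHT-WT1, and 0.74 and -0.19 in the null strain.

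Whole profiles were compared within each dye orientation. With the strain in Cy5, the PB1 array correlated across genes with those of DT1, TF1 and HT4 at r of 0.696, 0.741 and 0.765, and those strains correlated among themselves at 0.872 to 0.884. With the strain in Cy3, PB1 correlated with DT1, TF1 and HT4 at 0.692, 0.761 and 0.792, and those strains among themselves at 0.730 to 0.805. The ranges were thus separate in Cy5 and overlapped in Cy3, where PB1 was closer to HT4 and to TF1 than DT1 was to HT4. These correlations are across genes on arrays that share one reference RNA, and genes are not independent replicates. The 2 arrays of PB1 correlated with each other at 0.596, the lowest of the 4 strains, whose highest was 0.662. Before centring, the array medians were 0.0314 and 0.210 in PB1, and between -0.172 and 0.208 in DT1, TF1 and HT4.

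Of 5541 genes tested, 161 (2.91%) were called at a limma adjusted p under 0.05, of which 85 (1.53%) were higher and 76 (1.37%) lower in PB1. At an unadjusted p under 0.05 there were 1236 (22.3%). Among the genes called higher the median difference was 0.54, and 5 reached 2-fold, namely BTN2, MAL12, REE1, TDA6 and HXK1. Among those called lower the median was -0.57, and 8 reached 2-fold, namely YCR101C, EMA35, YIL014C-A, SNZ1, AGA1, HXT2, GND2 and ERR2. In both dye orientations the PB1 array lay outside the other 3 arrays for every one of the 161 genes. That holds for 15% of all genes on the high side and 15.1% on the low side. Both PB1 arrays lay beyond all 6 other arrays for 64 of the 85 and 61 of the 76 genes, against 6.5% of all genes on each side. The genes were called from these same values, so such counts follow largely from the selection and are no separate support. The plot of the difference in each dye orientation shows that the called genes were displaced in both, and that 49 of the 85 and 53 of the 76 were displaced further with the strain in Cy5.

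**Figure D1:**
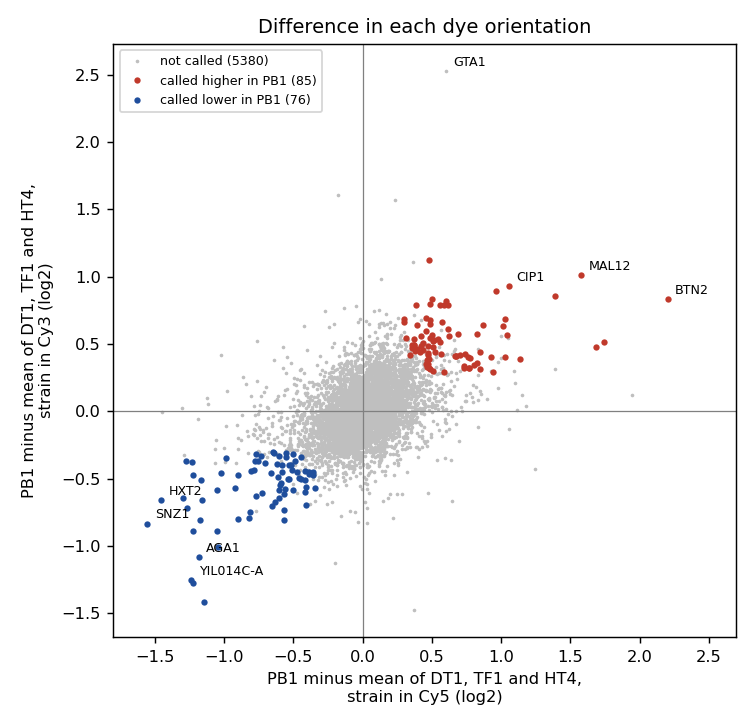
Difference between PB1 and the mean of DT1, TF1 and HT4 for each of 5541 genes on the log2 scale, with the strain in Cy5 on the horizontal axis and in Cy3 on the vertical axis; red points are the 85 genes called higher in PB1, blue points the 76 called lower and grey points the rest. All called genes lie in the upper right or lower left, while GTA1, above 0 in both (0.60 in Cy5 and 2.53 in Cy3), was not called.

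The size of the count rested on centring and on single arrays. With the arrays as deposited, where the median of all genes stood at 0.18 in PB1 minus the others, 473 genes were called higher and 43 lower, so that 91.7% of calls were higher in place of 52.8%. Without PB1 array 1 there were 21 calls in all, and without PB1 array 2 there were 212. Without DT1 array 1 or 2 there were 15 and 14, without TF1 array 1 or 2 there were 48 and 87, and without HT4 array 1 or 2 there were 59 and 103. Without PB1 array 1 the difference of 28 of the 161 genes moved by over 1.5 times, and without PB1 array 2 that of 9. No other array moved any of them that far, and none of the 161 changed sign with an array left out. Called whichever array was left out were MAL12, CIP1 and YIR042C among those higher in PB1, and YCR101C, EMA35, YIL014C-A, AGA1, GND2, ERR2 and ERR3 among those lower. Every other called gene lost its call in at least 1 of these fits. Without the dye term in the model MAL12 was the 1 gene called higher, and EMA35 and YCR101C were the 2 called lower.

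**Figure D2:**
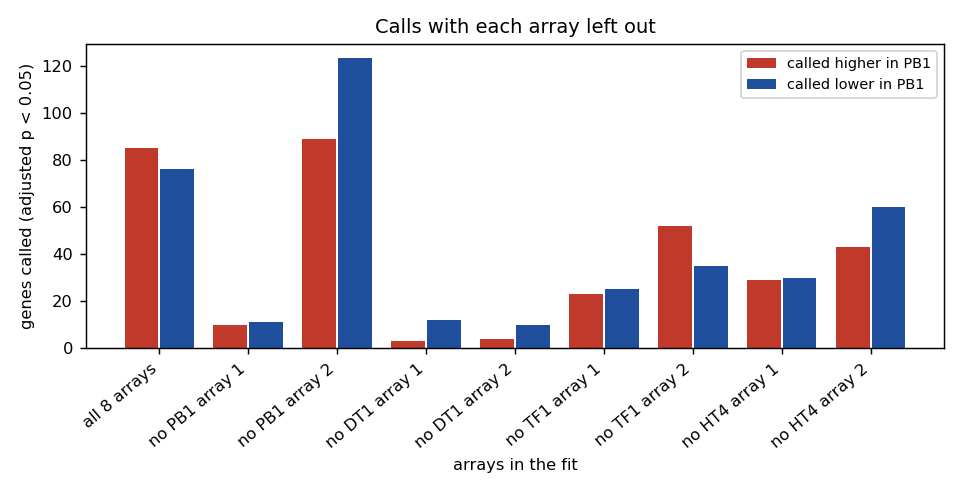
Number of genes called higher (red bars) and lower (blue bars) in PB1 against DT1, TF1 and HT4 with all 8 arrays and with each array left out in turn. All 8 arrays gave 85 higher and 76 lower, and the counts ranged between 3 and 89 higher and 10 and 123 lower with 1 array left out.

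Set against each strain alone, PB1 differed in 65 genes (1.17%) from DT1, 29 (0.523%) from TF1 and 30 (0.541%) from HT4. These comparisons share the PB1 arrays. Against DT1, 48 genes (0.866%) were higher and 17 (0.307%) lower in PB1. Against TF1, 11 (0.199%) were higher and 18 (0.325%) lower. Against HT4, 3 (0.0541%) were higher and 27 (0.487%) lower, the 3 being MAL12, CIP1 and RPS21A. Of the 85 genes called higher, HT4 was the strain nearest to PB1 for 58, TF1 for 14 and DT1 for 13. Of the 76 called lower, HT4 was nearest for 20, TF1 for 24 and DT1 for 32. Called against each of the strains alone were 2 of the 85, MAL12 and CIP1, and 9 of the 76. The same contrast was fitted for each other strain against the remaining 3, a step added after the data were seen. DT1 gave 2 calls (0.0361%), both lower (YIR042C and NCE102), TF1 gave 0 and HT4 gave 10 (0.18%), all higher. Among the 10 were AGA1, GND2, EMA35, YCR101C, APE1, ERR1, ERR2 and ERR3, each also called lower in PB1. Their PB1 differences thus rest in part on high HT4 values, and the HT4 contrast in part on low PB1 values. At an unadjusted p under 0.05 limma gave 739 genes (13.3%) for DT1, 270 (4.87%) for TF1 and 696 (12.6%) for HT4, beside 1236 for PB1.

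**Figure D3:**
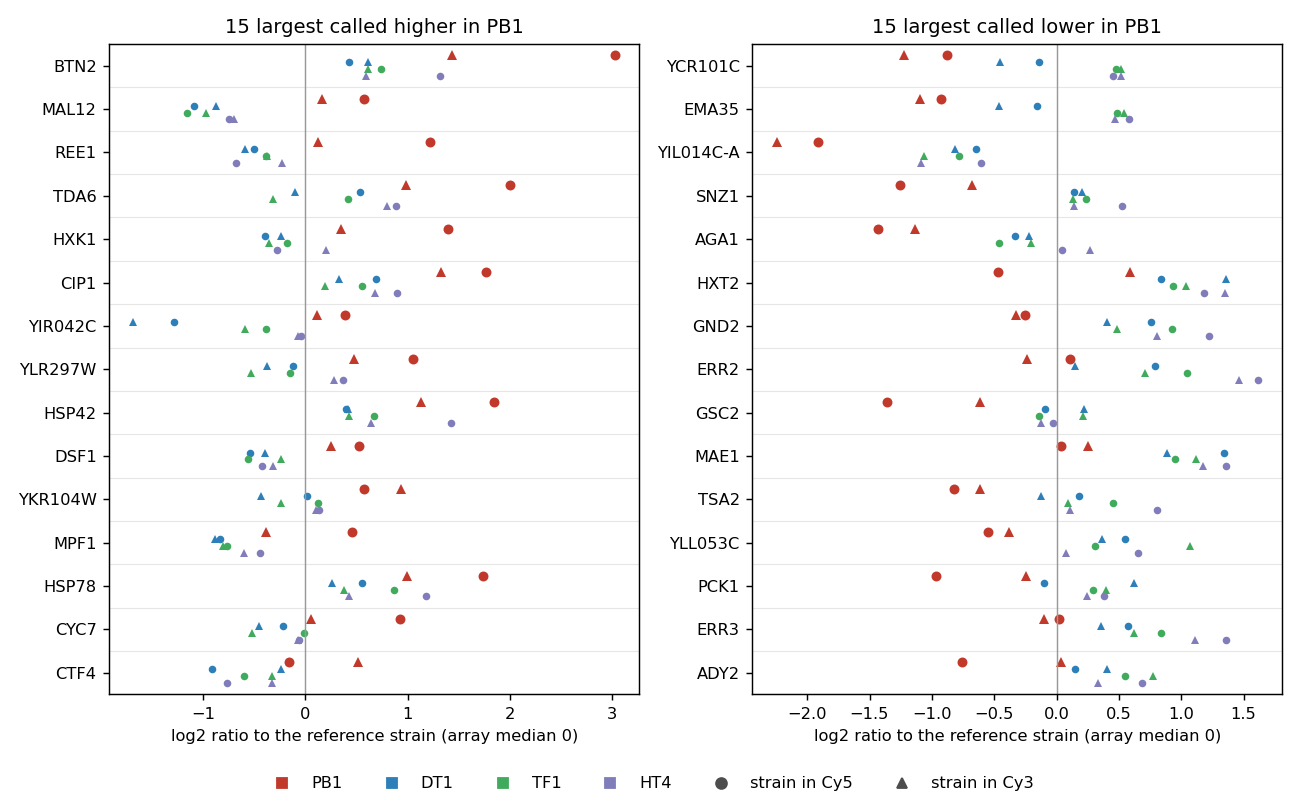
Log2 ratio to the reference strain on each of 8 arrays for the 15 genes with the largest called rise (left panel) and the 15 with the largest called fall (right panel) in PB1; colours mark PB1, DT1, TF1 and HT4, circles the arrays with the strain in Cy5 and triangles those with it in Cy3. MAL12 is above 0 on both PB1 arrays and below 0 on the other 6, and AGA1 is at -1.43 and -1.14 on the PB1 arrays and at -0.46 or above on the other 6.

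Some chaperone genes were among those that rose in PB1. Of 29 measured heat shock chaperone genes 5 rose (17.2%, beside 1.53% of all genes) and 0 fell. Above 0 were 26 of the 29 differences, with a median of 0.36 against 0.00 over all genes tested. The other 3 were below 0 and not called, the lowest at -0.69, which is further from 0 than the called rise of MDJ1 given below. BTN2, which sorts misfolded proteins into deposits, had log2 ratios of 3.03 and 1.44 in PB1, against 0.43 and 0.61 in DT1, 0.74 and 0.61 in TF1, and 1.32 and 0.59 in HT4. Both PB1 arrays exceeded the other 6, and the difference of 1.52 ± 0.28 was the largest called (limma adjusted p = 0.0318). Without PB1 array 1 it was 0.83 and not called (limma adjusted p = 0.144), and without PB1 array 2 it was 2.20. HSP42, a small heat shock protein that gathers misfolded proteins, had 1.85 and 1.13 in PB1, against 0.39 and 0.42 in DT1, 0.67 and 0.43 in TF1, and 1.42 and 0.65 in HT4. Here HT4 array 1 exceeded PB1 array 2, so the groups overlapped across dyes but not within a dye (0.82 ± 0.15, limma adjusted p = 0.0326). HSP78, the mitochondrial disaggregase, had 1.74 and 0.995 in PB1, against 0.56 and 0.26 in DT1, 0.87 and 0.38 in TF1, and 1.18 and 0.43 in HT4. It rose by 0.76 ± 0.11 (limma adjusted p = 0.0146). HSP82, the heat-induced Hsp90, rose by 0.70 ± 0.13, and MDJ1, the co-chaperone of mitochondrial Hsp70, by 0.54 ± 0.11. SSA4, a heat-induced Hsp70, had 2.76 and 1.08 in PB1 and between 0.43 and 1.74 in the other strains, and its difference of 0.85 ± 0.20 missed the threshold (limma adjusted p = 0.0566). KAR2, the Hsp70 of the endoplasmic reticulum, differed by 0.80 ± 0.23 (limma adjusted p = 0.0939). The SSA genes and the pair HSP82 and HSC82 are near-identical copies whose signals may be mixed.

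The chaperone values moved with the strain and between the 2 arrays of a strain, where dye and array number changed together. The list's median level was 1.06 and 0.35 in PB1, against 0.43 and -0.01 in DT1, 0.61 and 0.22 in TF1, and 1.18 and -0.16 in HT4. HT4 array 1 thus had a higher list median than PB1 array 1. On the 2 arrays titled homotypic, which are outside the comparison, the list's median level was 0.36 and -0.20. The list's median difference was 0.44 with the strain in Cy5 and 0.31 with it in Cy3. In both orientations 14 of the 29 members lay apart above the other strains and 2 below, against 15% and 15.1% of all genes. Against DT1 alone 3 members were called, and against TF1 or HT4 alone 0. With an array left out, the number of members called ranged between 0 and 6, and the list's median difference between 0.27 and 0.45. MSN4, a stress activator, had 0.73 and 0.34 in PB1, against -0.17 and -0.35 in DT1, -0.17 and -0.10 in TF1, and 0.41 and 0.24 in HT4 (0.56 ± 0.10, limma adjusted p = 0.0313). The wider list of 40 stress, trehalose and glycogen genes had 2 members higher and 2 lower in PB1, with a median difference of 0.10. That is 5% each, beside 1.53% and 1.37% of all genes.

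Several genes for maltose and isomaltose use rose in PB1. This list of 14 was put together after the values were seen, so its count is a description. Of the 14, 7 rose (50%, beside 1.53% of all genes) and 1 fell (7.14%, beside 1.37%), with a median difference of 0.45. In both orientations 11 of the 14 lay apart above the other strains and 2 below, against 15% and 15.1% of all genes. With an array left out, 1 to 7 members were called higher, with 1 in each fit without a DT1 array, and the median difference lay between 0.40 and 0.55. MAL12, a maltase, had log2 ratios of 0.58 and 0.16 in PB1, against -1.09 and -0.88 in DT1, -1.16 and -0.97 in TF1, and -0.75 and -0.70 in HT4. The groups did not overlap, and the difference of 1.29 ± 0.13 (limma adjusted p = 0.00239) was called against DT1, TF1 and HT4 each alone. MAL31, a maltose permease, had 0.17 and 0.46 in PB1, against -0.57 and -0.38 in DT1, -0.52 and -0.44 in TF1, and -0.25 and -0.17 in HT4 (0.70 ± 0.09, limma adjusted p = 0.00893). MAL32, the maltase of the MAL3 locus, rose by 0.64 ± 0.11, and MAL11, a permease for several glucosides, by 0.54 ± 0.10. The isomaltase genes IMA3 and IMA4 rose by 0.54 ± 0.10 and 0.49 ± 0.11, and YPR196W, a gene of the MAL activator family, by 0.41 ± 0.09. IMA5, an isomaltase more distant in sequence, was the member that fell. Its log2 ratios were -0.55 and -0.29 in PB1, against -0.15 and 0.18 in DT1, 0.05 and 0.33 in TF1, and -0.16 and 0.12 in HT4 (-0.48 ± 0.08, limma adjusted p = 0.0268). The IMA5 call held in 1 of the 8 fits with an array left out, that without HT4 array 2. The maltases MAL12 and MAL32, and IMA3 with IMA4, are near-identical in sequence, so these members are not independent measurements. In FHT-WT1 the list's median level was -0.16 and -0.13, and in the null strain -0.43 and 0.22.

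Genes for entry into glycolysis divided. HXK1, a hexokinase that is held down by glucose, had log2 ratios of 1.40 and 0.35 in PB1, against -0.40 and -0.24 in DT1, -0.18 and -0.35 in TF1, and -0.28 and 0.21 in HT4. All 6 other arrays lay below both PB1 arrays, but the PB1 arrays themselves differed by more than the others did among themselves (1.08 ± 0.24, limma adjusted p = 0.0499). Without PB1 array 1 the HXK1 difference was 0.48 and not called, and without PB1 array 2 it was 1.69. HXK2, the main hexokinase in glucose, rose by 0.62 ± 0.14, but its difference was 0.29 and not called without PB1 array 1, and 0.94 without PB1 array 2. SUC2, the secreted invertase, rose by 0.45 ± 0.09. HXT2, a high-affinity hexose transporter, fell. It had -0.47 and 0.59 in PB1, against 0.84 and 1.36 in DT1, 0.93 and 1.04 in TF1, and 1.18 and 1.35 in HT4 (-1.06 ± 0.17, limma adjusted p = 0.0207). Of the 17 genes in the list of hexose transporters, kinases and sensors HXK1 and HXK2 rose (11.8%, beside 1.53% of all genes). HXT2 alone fell (5.88%, beside 1.37%), and the list's median difference was 0.10. None of the 10 galactose genes was called, with a median difference of 0.05, nor was any of 18 glycolysis and fermentation genes, with a median of -0.09. REE1, which acts on enolase expression, had 1.22 and 0.12 in PB1 and between -0.68 and -0.23 in the other strains (1.13 ± 0.23, limma adjusted p = 0.0455). It was 0.52 and not called without PB1 array 1, and 1.74 without PB1 array 2. HXT2 was -0.66 and not called without PB1 array 1.

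Few respiratory chain genes were called, though most differences lay above 0. Of 38 genes of the respiratory chain and ATP synthase 2 rose (5.26%, beside 1.53% of all genes) and 0 fell. Among the 38 differences 36 were above 0, against 2784 of 5541 over all genes, with a median of 0.32. CYC7, the minor cytochrome c, had 0.93 and 0.05 in PB1, against -0.22 and -0.46 in DT1, -0.01 and -0.52 in TF1, and -0.07 and -0.07 in HT4 (0.72 ± 0.15, limma adjusted p = 0.0455). The CYC7 difference was 0.40 and not called without PB1 array 1, and 1.03 without PB1 array 2. RIP1, the Rieske subunit of complex III, had 0.59 and 0.62 in PB1, against -0.06 and 0.04 in DT1, 0.21 and 0.13 in TF1, and 0.12 and 0.24 in HT4 (0.49 ± 0.08, limma adjusted p = 0.0276). Both PB1 arrays exceeded all others for RIP1. CYC1, the main cytochrome c, differed by 0.65 without passing the threshold. HAP4, the limiting subunit of the activator of respiratory genes, rose with 0.80 and 0.54 in PB1, against -0.22 and -0.01 in DT1, 0.10 and 0.03 in TF1, and 0.19 and 0.42 in HT4 (0.59 ± 0.11, limma adjusted p = 0.0352). The list's median difference was 0.46 with the strain in Cy5 and 0.15 with it in Cy3. In both orientations 17 members lay apart above and 1 below, against 15% and 15.1% of all genes. With an array left out, 0 to 9 members were called higher, and the median difference was 0.15 without PB1 array 1 and 0.46 without PB1 array 2.

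Within the list of nonfermentable carbon genes the calls were all lower in PB1. Of 28 genes of the tricarboxylic acid cycle and nonfermentable carbon use 0 rose and 3 fell (10.7%, beside 1.37% of all genes). The list's median difference was -0.11. PCK1, the first committed step of glucose synthesis, had -0.97 and -0.24 in PB1, against -0.10 and 0.62 in DT1, 0.29 and 0.40 in TF1, and 0.38 and 0.24 in HT4 (-0.91 ± 0.17, limma adjusted p = 0.0319). CYB2, the mitochondrial lactate dehydrogenase, fell by 0.65 on the log2 scale and MLS1, the malate synthase of the glyoxylate cycle, by 0.47. ADY2, an acetate transporter, and MAE1, the mitochondrial malic enzyme, are outside that list and also fell. ADY2 had a difference of -0.85, and of -0.47 with no call when PB1 array 1 was left out. MAE1 had 0.04 and 0.25 in PB1, against 1.34 and 0.89 in DT1, 0.95 and 1.12 in TF1, and 1.36 and 1.17 in HT4 (-0.99 ± 0.13, limma adjusted p = 0.0118). In the DT1, TF1 and HT4 arrays MAE1 was thus above the reference on every array, and in PB1 it lay nearest to the reference level. YAT1, an outer mitochondrial carnitine acetyltransferase, fell by 0.62 ± 0.12 on the same scale. Outside the list as well, ACH1, an acetyl-CoA hydrolase gene, was called in the other direction. It rose by 0.55, and by 0.33 without PB1 array 1.

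**Figure D4:**
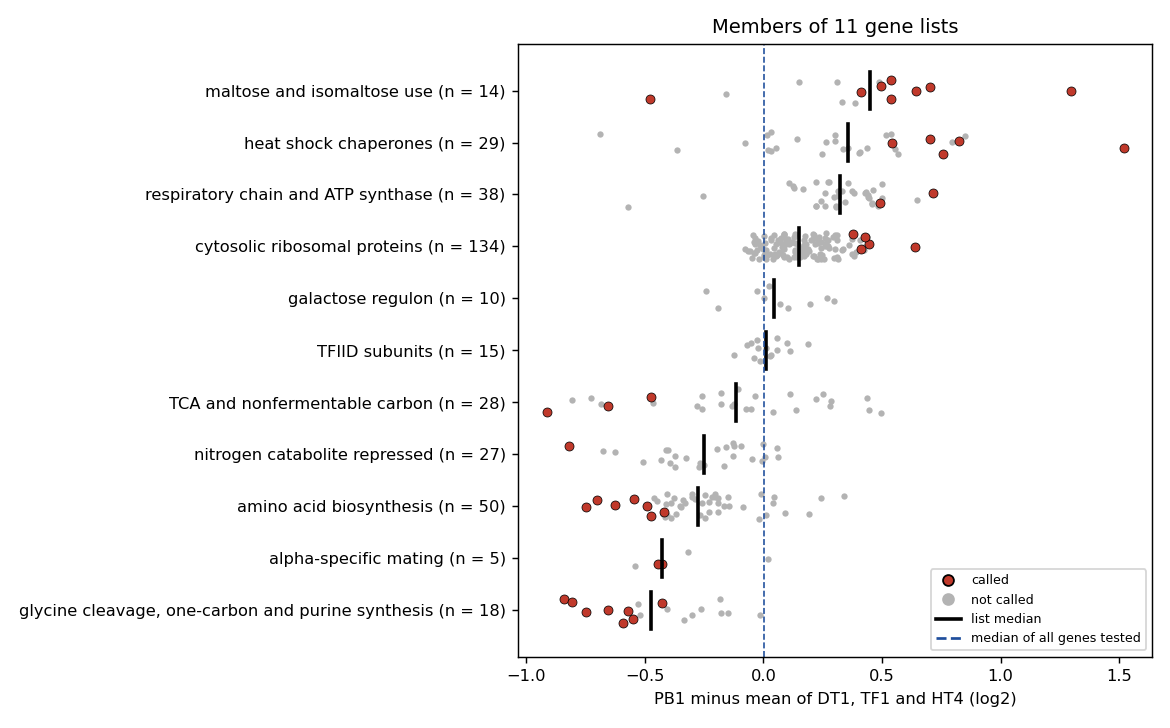
Difference between PB1 and the mean of DT1, TF1 and HT4 on the log2 scale for each member of 11 gene lists; red points are members called at an adjusted p under 0.05, grey points the others, black bars the list medians and the dashed line the median of all 5541 genes. The maltose list has the highest median, 0.45, and the glycine cleavage, one-carbon and purine list the lowest, -0.47, and both of these lists were put together after the values were seen.

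Several genes of glycine cleavage, one-carbon metabolism and purine synthesis fell in PB1. This list of 18 was also put together after the values were seen. Of its members 8 fell (44.4%, beside 1.37% of all genes) and 0 rose. All 18 differences were below 0, with a median of -0.47. SHM2, the cytosolic serine hydroxymethyltransferase that feeds one-carbon units into folate, had -0.01 and -0.08 in PB1, against 0.80 and 0.32 in DT1, 0.95 and 0.73 in TF1, and 0.98 and 0.44 in HT4. It lay lower on both PB1 arrays than on every other array (-0.75 ± 0.11, limma adjusted p = 0.0148). MTD1, a cytosolic folate dehydrogenase, had -0.28 and -0.69 in PB1, against 0.45 and 0.11 in DT1, 0.60 and 0.36 in TF1, and 0.58 and -0.15 in HT4 (-0.81 ± 0.11, limma adjusted p = 0.0118). GCV1, GCV2 and GCV3 encode subunits of the mitochondrial glycine cleavage complex, and all 3 fell, by 0.65, 0.84 and 0.55 on the log2 scale. GCV2 had -0.18 and 0.12 in PB1, against 0.98 and 0.47 in DT1, 0.997 and 0.96 in TF1, and 0.98 and 0.47 in HT4. Its difference was -0.51 and not called without PB1 array 1, and -1.17 without PB1 array 2. The GCV3 call was lost with any 1 array left out, over a range of -0.69 to -0.41. Of the purine genes, ADE1, ADE8 and ADE13 fell by 0.59, 0.43 and 0.57, and ADE2 differed by -0.53 without a call. On the median of the list PB1 lay at -0.02 and -0.21, DT1 at 0.39 and 0.21, TF1 at 0.47 and 0.37, and HT4 at 0.49 and 0.15. FHT-WT1 lay at 0.27 and 0.03 and the null strain at 0.37 and -0.21. Of the 18 members 14 were apart below the other strains in both orientations, against 15.1% of all genes, and 0 to 7 members were called with an array left out, with 0 when PB1 array 1 or a DT1 array was left out.

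Some amino acid synthesis genes fell in the same comparison. Of 50 measured genes outside arginine and sulfur metabolism 7 fell (14.0%, beside 1.37% of all genes) and 0 rose, 43 of the 50 differences were below 0, and the median was -0.28. With an array left out, 0 to 11 members were called lower. The fit without PB1 array 1 called 0, with a median of -0.17, the fits without a DT1 array called 1 each, and the fit without PB1 array 2 called 11. One of the 7, SHM2, also belongs to the preceding list. HIS4, a multifunctional enzyme of histidine synthesis, had -0.22 and 0.02 in PB1, against 0.52 and 0.63 in DT1, 0.50 and 0.54 in TF1, and 0.64 and 0.78 in HT4. The PB1 arrays lay near the reference level and every other array above both of them (-0.70 ± 0.08, limma adjusted p = 0.00828). HIS5, the histidinol-phosphate aminotransferase, had -0.17 and -0.52 in PB1, against 0.44 and 0.05 in DT1, 0.37 and 0.15 in TF1, and 0.50 and 0.19 in HT4 (-0.62 ± 0.08, limma adjusted p = 0.0118). LEU4 (leucine synthesis), ILV2 (isoleucine and valine), LYS9 (lysine) and GDH3 (glutamate) fell by 0.55, 0.49, 0.47 and 0.42. LYS9 was -0.30 and not called without PB1 array 1. GCN4, whose product activates many of these genes, differed by 0.34 in the other direction and was not called. Its output is known to be controlled mostly at translation, which these arrays do not measure.

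Calls in other nitrogen-related lists were few in number, though the lists differ in size. In the auxotrophic marker list ADE1 and ARG4 fell (20%, beside 1.37% of all genes) and the other 8 of 10 were not called. The median difference of the marker list was -0.26. ARG4, the argininosuccinate lyase, had -0.19 and -0.55 in PB1, against 0.41 and 0.05 in DT1, 0.47 and 0.18 in TF1, and 0.51 and 0.23 in HT4 (-0.68 ± 0.08, limma adjusted p = 0.00821). None of the other 7 arginine synthesis genes was called, with a median difference of 0.01. Of the uncalled markers, HIS3 differed by -0.27, LYS2 by -0.26, CAN1 by -0.43, TRP1 by -0.10, LEU2 by 0.18 and URA3 by 0.05. PUT1, the proline oxidase, was the 1 member called of 27 nitrogen catabolite repressed genes (3.7%, beside 1.37% of all genes). It had -0.13 and 0.35 in PB1, against 0.98 and 1.01 in DT1, 0.76 and 1.08 in TF1, and 1.03 and 0.72 in HT4 (-0.82 ± 0.14). The median difference of that list was -0.25, made up of -0.37 with the strain in Cy5 and -0.04 with it in Cy3. Of 39 sulfur and methionine genes ADI1, of the methionine salvage pathway, alone fell (2.56%, beside the same 1.37%).

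**Figure D5:**
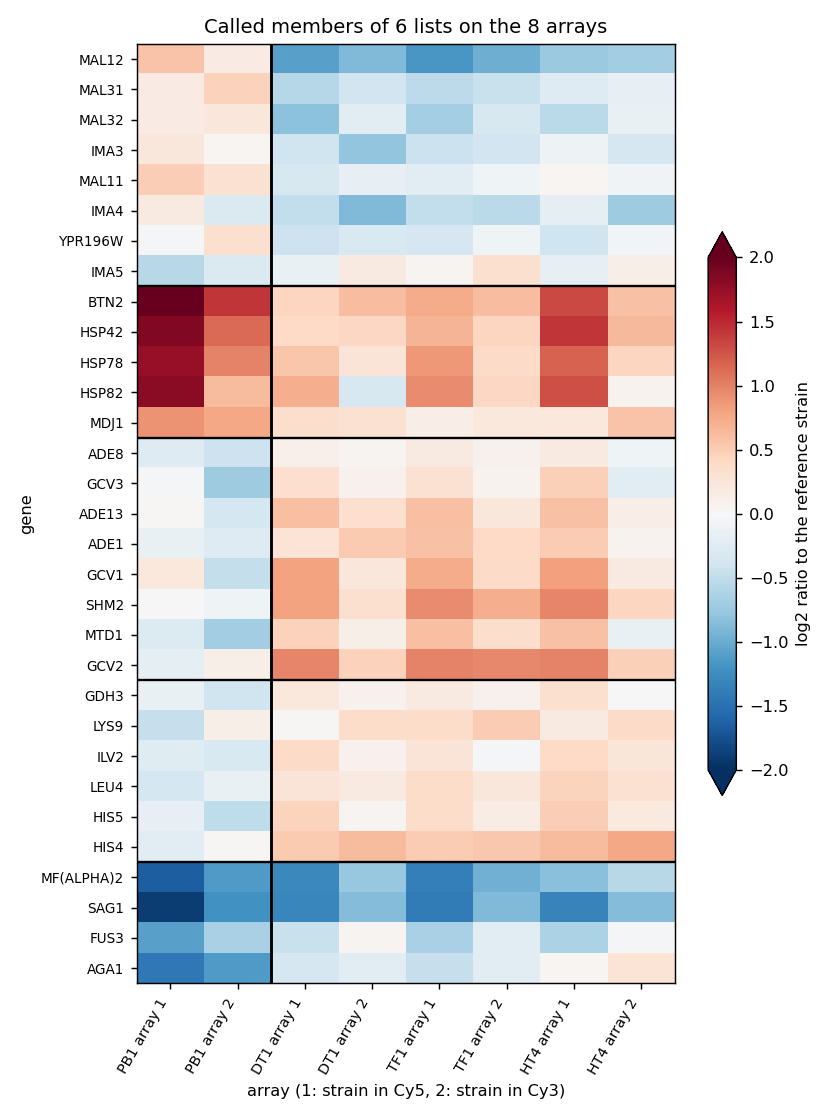
Log2 ratio to the reference strain (colour, limited to -2 and 2) of the called members of 6 gene lists on the 8 arrays, with PB1 in the first 2 columns; lines divide maltose genes, chaperones, glycine cleavage with one-carbon and purine genes, amino acid synthesis genes and mating genes. MAL12 changes colour between PB1 and every other array, while the chaperones are red on HT4 array 1 as well as on both PB1 arrays.

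Mating genes were among those that fell in PB1. AGA1, the cell wall anchor of a-agglutinin and a target of the pheromone pathway, had log2 ratios of -1.43 and -1.14 in PB1, against -0.33 and -0.22 in DT1, -0.46 and -0.20 in TF1, and 0.04 and 0.27 in HT4. The groups were separate on both dyes, and the difference of -1.13 ± 0.08 (limma adjusted p = 0.000673) was called against each strain alone. AGA1 was also called in HT4 against the other 3 strains (0.79, limma adjusted p = 0.00939). FUS3, the kinase of the pheromone pathway, had -1.08 and -0.65 in PB1, against -0.45 and 0.05 in DT1, -0.65 and -0.22 in TF1, and -0.63 and -0.03 in HT4 (-0.55 ± 0.08, limma adjusted p = 0.0185). These were the 2 members that fell of 22 a-specific and pheromone response genes (9.09%, beside 1.37% of all genes). In that list 0 rose, and its median difference was -0.05. Of 5 alpha-specific genes, with a median difference of -0.43, 2 fell (40%, beside 1.37% of all genes). These were SAG1, the alpha-agglutinin, and MF(ALPHA)2, an alpha-factor gene, which fell by 0.45 and 0.43. SAG1 had -1.90 and -1.21 in PB1, against -1.30 and -0.87 in DT1, -1.40 and -0.89 in TF1, and -1.34 and -0.87 in HT4. All 4 strains were thus below the reference for SAG1, and PB1 the lowest on each dye. Of the 21 alternative settings SAG1 was called in 7 and MF(ALPHA)2 in 5. Neither was called with arrays scaled to one spread or quantile normalized, where the median difference of the alpha-specific list was -0.21 and -0.19. MF(ALPHA)1 had -2.86 and -2.99 in PB1, and -1.78 to -3.02 in the other strains, with a difference of -0.54 ± 0.17 that was not called (limma adjusted p = 0.128). STE3, the receptor for a-factor, differed by -0.32 and AFB1 by 0.02, and neither was called.

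Neighbouring genes near the end of chromosome III gave the largest falls, with a strain order. In the R64 annotation EMA35 and YCR101C lie next to each other. EMA35 had -0.92 and -1.09 in PB1, against -0.16 and -0.46 in DT1, 0.49 and 0.54 in TF1, and 0.58 and 0.47 in HT4. YCR101C had -0.88 and -1.22 in PB1, against -0.14 and -0.45 in DT1, 0.48 and 0.52 in TF1, and 0.45 and 0.51 in HT4. PB1 was lowest and DT1 next, and TF1 and HT4 did not differ beyond their arrays. The differences were -1.25 ± 0.09 (limma adjusted p = 0.000673) and -1.28 ± 0.11 (limma adjusted p = 0.0013). Against DT1 alone they were -0.70 and -0.75, and against HT4 alone -1.53 for both. YIL014C-A, an uncharacterised reading frame, had -1.91 and -2.25 in PB1, against -0.64 and -0.82 in DT1, -0.78 and -1.07 in TF1, and -0.61 and -1.09 in HT4 (-1.25 ± 0.09, limma adjusted p = 0.000673). For YIL014C-A the other strains overlapped with each other and PB1 lay below all of them.

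The ERR genes and GND2 ran in another order, with HT4 highest. ERR2, an enolase-related gene, had 0.11 and -0.24 in PB1, against 0.79 and 0.15 in DT1, 1.05 and 0.71 in TF1, and 1.62 and 1.46 in HT4 (-1.03 ± 0.10, limma adjusted p = 0.0027). ERR3 fell by 0.85 and ERR1 by 0.57 on the log2 scale. The ERR genes are near-identical copies, so they may be 1 measurement. ERR2 was called in PB1 against TF1 and HT4 but not against DT1 (-0.53, limma adjusted p = 0.0749), and it was also called in HT4 against the other 3 strains (1.11, limma adjusted p = 0.00786). GND2, the minor 6-phosphogluconate dehydrogenase, had -0.26 and -0.32 in PB1, against 0.75 and 0.41 in DT1, 0.93 and 0.48 in TF1, and 1.22 and 0.81 in HT4. It fell by 1.06 ± 0.10 on the log2 scale and was called against each strain alone. Its paralogue GND1, the major form, rose, with 0.60 and 0.47 in PB1, against 0.19 and 0.04 in DT1, 0.07 and 0.12 in TF1, and 0.11 and -0.06 in HT4 (0.45 ± 0.09, limma adjusted p = 0.0352).

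SNZ1, GSC2 and TSA2 were each the 1 member of its list that fell. SNZ1 was 1 of 23 genes of thiamine synthesis and the SNO and SNZ families (4.35%) and GSC2 1 of 41 cell wall genes (2.44%). No member was called higher in either list. TSA2 was 1 of 35 redox genes (2.86%), of which OYE3 and GND1 rose (5.71%). These shares stand beside 1.37% lower and 1.53% higher over all genes. SNZ1, a vitamin B6 synthesis gene of stationary phase, had -1.25 and -0.68 in PB1, against 0.14 and 0.21 in DT1, 0.23 and 0.13 in TF1, and 0.53 and 0.14 in HT4. It was below the reference in PB1 and above it on all other arrays (-1.19 ± 0.16, limma adjusted p = 0.0118). GSC2, the stress-induced glucan synthase, had -1.36 and -0.61 in PB1, against -0.09 and 0.22 in DT1, -0.14 and 0.21 in TF1, and -0.03 and -0.12 in HT4 (-0.99 ± 0.14, limma adjusted p = 0.0146). TSA2, a stress-induced peroxiredoxin, had -0.82 and -0.61 in PB1, against 0.18 and -0.12 in DT1, 0.45 and 0.10 in TF1, and 0.80 and 0.11 in HT4 (-0.97 ± 0.15, limma adjusted p = 0.0185). The TSA2 difference was -0.64 and not called without PB1 array 1. GTT1, a glutathione transferase, fell by 0.69, while OYE3, an NADPH oxidoreductase, rose by 0.53, though by 0.33 without a call when PB1 array 1 was left out. YLL053C and AQY2, neighbours in R64 that resemble parts of an aquaporin, fell by 0.97 and 0.74, and AQY2 was -0.46 and not called without PB1 array 1.

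CIP1 and YIR042C were called higher in PB1 in every fit with an array left out. CIP1, an inhibitor of cyclin-dependent kinase, had 1.77 and 1.33 in PB1, against 0.69 and 0.33 in DT1, 0.55 and 0.19 in TF1, and 0.90 and 0.68 in HT4. It was above the reference in all strains and highest in PB1 (0.99 ± 0.08, limma adjusted p = 0.0013), and it was called against each strain alone. YIR042C, uncharacterised, had 0.39 and 0.12 in PB1, against -1.29 and -1.68 in DT1, -0.38 and -0.59 in TF1, and -0.04 and -0.07 in HT4 (0.93 ± 0.09, limma adjusted p = 0.0027). Here DT1 lay far below the rest, and PB1 was called against DT1 (1.74) and TF1 (0.74) but not against HT4 (0.31, limma adjusted p = 0.234). In FHT-WT1 the ratio was -0.98 and -0.43. NCE102, an eisosome protein gene, showed the same order, with 1.20 and 1.12 in PB1, 0.09 and 0.25 in DT1, 0.74 and 0.65 in TF1, and 1.10 and 0.92 in HT4. Its difference from HT4 alone was 0.15 and was not called.

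Few ribosomal protein genes were called. Of 134 cytosolic ribosomal protein genes 5 rose (3.73%, beside 1.53% of all genes) and 0 fell, with a median difference of 0.15 and 118 of 134 above 0. The 5 were RPL22A, RPL36A, RPL37A, RPS21A and RPL22B, with differences of 0.64, 0.44, 0.43, 0.41 and 0.38. RPS21A had -0.31 and -0.36 in PB1, against -0.58 and -0.45 in DT1, -0.66 and -0.66 in TF1, and -1.09 and -1.01 in HT4. It was below the reference in every strain and least so in PB1. The list's median level was -0.62 and -0.35 in PB1, -0.59 and -0.42 in DT1, -0.65 and -0.60 in TF1, and -0.86 and -0.66 in HT4. PB1 array 1 thus lay below DT1 array 1. The median difference was 0.02 against DT1, 0.17 against TF1 and 0.28 against HT4. With an array left out, at most 1 member was called. None of 66 mitochondrial ribosomal protein genes was called, with a median difference of 0.09, and none of 75 ribosome biogenesis genes was, with a median of -0.06.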

How the data were processed

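The authors deposited log2 ratios of the 2 dye channels for 7056 features on 14 arrays, and per the series design text they had normalized the dye swaps by the mode in R and corrected them with B. subtilis spikes. The values here were centred per array because array medians differed. Of the features 5579 carry a gene name, giving 5548 genes, of which 5543 matched R64, used for names and neighbours only, and 30 had several features, which were averaged. Tests used the 5541 genes measured on every one of the 8 arrays, which left out 7. Depth is not given for arrays, and their small number limits the precision. No column lacked a sample.

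Limma 3.58.1 in R 4.3.3 was fitted with 4 strains and a term for dye orientation, which also holds the array number as a block. The contrast was PB1 minus the mean of DT1, TF1 and HT4, two-sided, with Benjamini-Hochberg adjustment over 5541 genes and a threshold of 0.05. The fit had 3 residual and 5.81 prior degrees of freedom and a median SE of 0.0952. It was also run on simulated arrays with independent noise for each gene. Such data hold no shift shared by many genes of an array, so they do not bear on the swings with single arrays left out. The alternatives were 21 settings, among them the arrays as deposited, other normalizations and each array left out.

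The rule for named genes took TAF1, all auxotrophic marker and alpha-specific genes, the 15 largest called rises and falls with PB1 outside the other strains in each orientation, and up to 3 members of each other list. Other genes named were chosen after their values were seen. The members and the 35 lists were chosen with earlier results of these data known, and 2 lists were added later. A planned comparison of promoter motifs was not run, since no sequences were used here.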

Additional observations from a re-analysis of the deposited data

How the results depend on the processing

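The 21 alternatives kept the direction of every called gene named in PB1 minus DT1, TF1 and HT4. The uncalled TAF1, MET17, BUD6, TRP1, URA3 and AFB1 changed sign under some of them. With each array left out in turn TAF1 ranged over -0.40 to 0.46, MET17 over -0.61 to 0.20, BUD6 over -0.34 to 0.40, URA3 over -0.0362 to 0.14 and AFB1 over -0.075 to 0.12. With HT4 left out of the mean TAF1 was -0.0229 and BUD6 -0.0291, and with TF1 left out AFB1 was -0.0816. MET17 was 0 and BUD6 -0.27 after quantile normalization, BUD6 was -0.22 with arrays scaled to one spread, and TRP1 was 0.0811 with the arrays as deposited. Over all genes named and all settings, 822 values kept their direction and lost the call, 19 gained one and 1504 changed neither. Counts of calls moved far more, and the cause was not tested beyond what each setting changes. With the arrays as deposited there were 473 calls higher and 43 lower in PB1, 564 against DT1, 111 against TF1 and 455 against HT4. Quantile normalization gave 105 against DT1 and 19 against HT4. With all 14 arrays in the fit there were 25 higher and 34 lower, and 16 each against DT1 and TF1. Without the dye term, which is the block of array numbers (no replicate block), there were 1 higher and 2 lower, 0 against DT1, 2 against TF1 and 1 against HT4. With DT1, TF1 and HT4 as one group there were 40 higher and 50 lower. Leaving DT1 out of the mean gave 33 higher, and leaving TF1 out 38 higher and 43 lower. With each array left out in turn, the counts ranged over 3 to 89 higher, 10 to 123 lower, 0 to 173 against DT1, 7 to 145 against TF1 and 7 to 139 against HT4, with the lone array of a strain assumed to vary like the others. The medians of the chaperone, respiratory chain, maltose, amino acid and one-carbon lists kept their sign under all 21 settings. All settings use the same arrays, and the maltose and one-carbon lists were picked from these values. A stable sign is therefore no separate support for them. With 2 arrays per strain the counts depend heavily on single arrays.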

Other observations

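Several called genes belonged to lists with few calls. Over all genes tested 1.53% were called higher and 1.37% lower. PCL1, a G1 cyclin of the Pho85 kinase, and CDC28, the main cell cycle kinase, rose by 0.43 and 0.45. They were the 2 members called of 26 cyclin and cell cycle genes (7.69%). IME1, the master regulator of meiosis, and REC104, a meiotic recombination gene, rose by 0.42 and 0.43, the 2 called of 33 meiosis and sporulation genes (6.06%). FIT2, a cell wall mannoprotein that holds iron siderophores, rose by 0.51 as the 1 called of 37 iron and copper genes (2.7%). PNC1, a nicotinamidase, rose by 0.41, and CCL1, the cyclin of the TFIIH kinase, by 0.48. GRE2 and DAK1, genes of the osmotic and glycerol list of 16 (12.5% lower), fell by 0.47 and 0.41. Most of these calls did not hold widely. CDC28 was called in 4 of the 20 alternative settings that tested it. Of 21 settings DAK1 was called in 5, REC104 and PNC1 in 6, FIT2 and GRE2 in 8, IME1 in 9, PCL1 in 10 and CCL1 in 14. No member was called of 10 histone genes (median difference 0.19), 27 sterol synthesis genes (-0.15), 24 phosphate genes (-0.16), 36 proteasome genes (0.05), 35 genes of folding and glycosylation in the endoplasmic reticulum (-0.03) or 55 translation factor and tRNA synthetase genes (-0.11).

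GTA1 had the largest difference of all genes, 1.57 ± 0.64, and was not called (limma adjusted p = 0.198). Its log2 ratios were 0.13 and 2.38 in PB1, against 0.02 and -0.78 in DT1, -0.54 and -1.39 in TF1, and -0.91 and 1.71 in HT4. The 2 arrays disagreed in sign in DT1 and HT4 and lay far apart in PB1.

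Of the 161 called genes (2.91% of all genes tested), 30 lay next to another called gene in the R64 annotation, in 16 pairs. How many such pairs as many genes picked at random would form was not computed. The share of all neighbouring genes that move in the same direction was not computed either, so these counts are a description only. In 11 pairs both genes moved in the same direction, for example MAL11 with MAL12, REE1 with YJL218W, HAP4 with KTI12 and GDH3 with BDH2, and in 5 pairs they moved in opposite directions, for example REE1 with IMA5 and FUS3 with ACH1. DSF1 and MAN2, near-identical mannitol dehydrogenase genes on different chromosomes, rose by 0.81 and 0.58. The difference without PB1 array 1 was 0.35 for MAN2, 0.41 for YJL218W, 0.33 for KTI12 and 0.33 for ACH1, and none of the 4 was called.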
